A study of Mus musculus with 5 samples.

Results

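The lipogenesis genes described here are 10 genes that make fatty acids and store them as glycerolipids in the liver: Acly, Acaca, Acacb, Fasn, Scd1, Elovl6, Gpam and Dgat2, with the regulators Srebf1 and Mlxipl. They were chosen by gene symbol from the 21828 genes named in the deposited tables. At e15.5, 9 of them were listed, without Acacb, and every other table listed all 10. The data come from Ago HITS-CLIP of C57BL/6 mouse liver, in which RNA is crosslinked to Argonaute proteins with ultraviolet light, recovered with antibodies and sequenced, which reads miRNAs as well as pieces of their targets. Embryonic livers (e12.5, e15.5 and e18.5, in days), livers of postnatal day 7 (P7) and livers of adults of 6 to 8 weeks were crosslinked 3 times with 254 nm light at 0.2 J/cm2. Antibodies to Ago2 served for all stages, and those to Ago1 joined them for P7 and adult liver alone, so antibody and age after birth cannot be told apart. The methods name 2 biological replicates for Ago2. A further e18.5 library is named in the study's supplement, and the tables do not say whether a list stands for it. There is 1 table per stage and no labelled replicate, so every difference below is a difference between tables and no test was possible. The labels name no transgene or treatment at any stage, and the tissue was whole liver, in which fewer cells of a type and less RNA per cell cannot be told apart.

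Lipogenesis turns citrate from the mitochondria into fat. Acly releases acetyl-CoA from citrate, Acaca and Acacb carboxylate it to malonyl-CoA, and Fasn joins these units into palmitate. Elovl6 and Scd1 lengthen and desaturate the product, Gpam and Dgat2 carry out an early and the last step of triglyceride synthesis, and Srebf1 and Mlxipl encode the transcription factors SREBP-1 and ChREBP, which switch these enzymes on in the fed liver. A miRNA pairs through its seed, bases 2 to 8, with a matching site in an mRNA and brings Ago to it, and such sites are mostly studied in 3′UTRs.

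The sites that carry the observations on these genes are shown first. Each line gives the stretch of mRNA that the table pairs with the miRNA, 5′ to 3′, read from the deposited tables. All lines but the last pair were looked up in GRCm38 (mm10) and found at the place given with the results. The positions are those of the matched bases. Capitals mark the bases that match the miRNA seed and, in 8mer and 7mer-A1 sites, the A that faces its first base. The coding-sequence sites were those of abundant miRNAs, here the 20 with the highest read number in a table, that recurred in the most tables.
Acly exon 19, miR-122-5p: gctgcgctaccaggACACTCCA
Acaca exon 52, miR-30a-5p and miR-30e-5p: cgtcgggtagatccaGTTTACA
Gpam exon 22, let-7a-5p, let-7b-5p, let-7c-5p and let-7f-5p: tgagcagtactttcCTACCTCA
Fasn exon 13, miR-126a-3p: tgtgtttgccaaggaGGTACGA
Fasn exon 39, miR-378a-3p: aAGTCCAGg
Acaca exon 14, miR-16-5p: atttcagtgttgcTGCTGCTg
The same rule gave the following sites in 3′UTRs, of which the last had the most reads of any that were listed in 1 table.
Acly exon 29, miR-194-5p: tgcagccgacttgtCTGTTACt
Scd1 exon 6, miR-16-5p, site 1: cagtgtctgtaagtaGCTGCTA
Scd1 exon 6, miR-16-5p, site 2: aggtagtggtacagTGCTGCTg
Fasn exon 43, miR-136-5p: tgcagggcaggatATGGAGA
Elovl6 exon 5, miR-26a-5p and miR-26b-5p: cacctatcttccttTACTTGAg
Scd1 exon 6, miR-16-5p, site 3: gagcacccaggactTGCTGCTg
A further pair of sites lies in the clusters with the most RPM on Fasn and Dgat2, and belongs to miRNAs that were not among the 20 most abundant of the same table.
Fasn exon 9, miR-18a-5p and miR-18b-5p: tgcacgccagtggacGCACCTTA
Dgat2 exon 8, miR-18a-3p: agctgggcaAGGGCAGt

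Of the miRNAs that face these sites, those given below are from RefSeq (GRCm38.p6) with the seed in capitals, to be read against the capitals above in the opposite direction, and 1 member stands for each shared seed. miR-122-5p and miR-378a-3p are named only. The let-7 members share 1 seed, as do miR-26a-5p and miR-26b-5p, miR-30a-5p and miR-30e-5p, and miR-18a-5p and miR-18b-5p, so reads on such a site cannot be assigned to 1 member.
miR-30a-5p: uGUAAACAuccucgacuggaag
let-7c-5p: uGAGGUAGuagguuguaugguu
miR-126a-3p: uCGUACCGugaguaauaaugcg
miR-16-5p: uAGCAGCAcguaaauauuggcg
miR-194-5p: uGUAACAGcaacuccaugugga
miR-136-5p: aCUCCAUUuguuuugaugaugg
miR-26a-5p: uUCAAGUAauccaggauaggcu
miR-18a-5p: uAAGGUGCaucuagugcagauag
miR-18a-3p: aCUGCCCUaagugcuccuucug

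The unit of the tables is a cluster, a stretch of overlapping Ago-bound reads that holds at least 1 seed match, and each cluster carries its highest read number, never below 5. A level is given here as the reads of a gene's clusters per 1000000 summed cluster reads of the same table (RPM). The tables held between 76948 and 208193 distinct clusters, and between 13008703 and 44867326 summed cluster reads. Clusters on mRNAs carried between 13.47% of these reads in adult liver and 30.03% at e18.5, since most reads lay on miRNA genes, and 79.88% did so in adult liver. Every embryonic table holds 2 unlabelled lists, which were added up for genes, clusters and sites alike, and values of the separate lists are given where they differ widely. All 10 hepatocyte markers were listed at every stage, with a sum of 1064 RPM at e12.5, 3376 for e15.5 and 10791 for e18.5, followed by 10332 at P7 and 11857 in the adult. Of 13 erythroid markers 9 to 11 were listed, and their sum was between 34615 and 96519 RPM up to P7 and 1639 in adult liver. Hba-a1 and Hba-a2, a pair of gene copies at separate places, were listed with equal reads in 4 tables and with a difference of 15 reads in the other. With the pair counted once the erythroid sum was between 18373 and 53686 RPM up to P7 and 890.6 in adult liver. The 5 adipocyte markers summed to between 0.8439 and 2.546 RPM, with Lep and Cidea not listed at any stage.

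In RPM, adult liver held more Ago-bound reads on the lipogenesis genes than any earlier stage. The 10 genes summed to 301.7 RPM in the e12.5 table, 293.2 in that of e15.5, 627.6 in that of e18.5, 332 in that of P7 and 1323 in adult liver. Between e12.5 and adult liver this was a log2 ratio of 2.13 (95% interval 2.10 to 2.16, for counting error only), between P7 and adult liver it was 1.99, and between e18.5 and P7 it was -0.92. The last of these depends on the divisor for e18.5: scaled to the study's library totals it was -0.45 with 1 e18.5 library and 1.95 with both added, as would apply if the lists were those libraries. Scd1, the stearoyl-CoA desaturase, held 57.6% of the members' reads in adult liver and between 2.67% and 10.1% before. Without Scd1 the sums were 288.1, 263.7, 605.9, 323.2 and 561.5 RPM in the order of the stages, so that e18.5 and adult liver were the 2 highest tables. The hepatocyte marker sum, too, was highest in adult liver, and it differed little between e18.5, P7 and adult liver. Single markers in it differed more. In that order Alb had 2591, 3816 and 6248 RPM, and Fgb had 643.9, 133.1 and 515.2. Per 1000 hepatocyte marker reads, a scale chosen after the values were seen, the members had 284 reads at e12.5, 86.9 for e15.5 and 58.2 for e18.5, followed by 32.1 at P7 and 112 in the adult. On this scale e12.5 was the highest table and the log2 ratio of adult over e12.5 was -1.35, with Scd1 (2.33) and Acacb (1.65) higher in adult liver and the other members lower. The part of hepatocyte number in the members' reads was not tested.

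**Figure D1:**
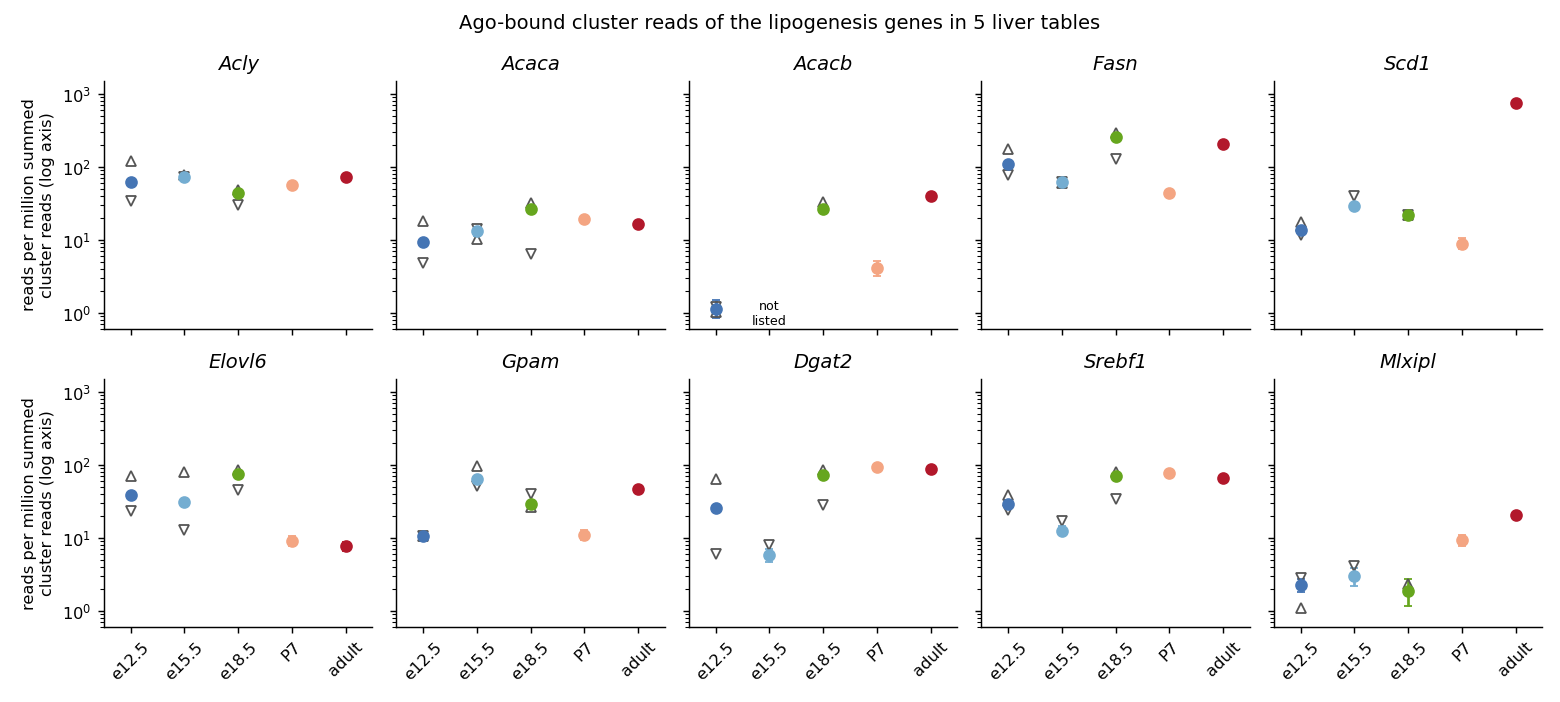
RPM (log axis) of each lipogenesis gene in the 5 tables. Filled circles are the whole table with 95% Poisson intervals for counting error, and open triangles pointing up and down are the first and second list of an embryonic table where they list the gene. Scd1 stands at 761.3 in adult liver and at 29.48 or lower before, while Acly stays between 44.43 and 73.58.

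Among the 12060 genes listed at both e12.5 and adult, 4 of the 10 members were at least 4-fold higher in adult liver, where 10.8% of all genes were, and these were Acacb, Scd1, Mlxipl and Gpam. Only Elovl6 was at least 4-fold lower, where 32.6% of all genes were. The members' median log2 ratio was 1.49 and that of all genes -1.09. From e18.5 to P7, 1 member was at least 4-fold higher (Mlxipl; 9.57% of 12170 genes) and 3 were at least 4-fold lower (Fasn, Acacb and Elovl6; 15.1% of all genes). The members' median was -0.89 and that of all genes -0.49. These calls depend on e18.5. Against its second list 0 members were at least 4-fold higher and 1 lower (Elovl6). With the study's totals of both e18.5 libraries as the divisor 5 were higher (Acaca, Acly, Dgat2, Mlxipl and Srebf1) and 0 lower. That divisor moves every gene by 2.86 in log2. For neither alternative was the share of all genes past 4-fold counted. From P7 to adult liver, 4 members were at least 4-fold higher (Fasn, Acacb, Scd1 and Gpam; 3.03% of 12032 genes) and 0 were at least 4-fold lower (18.8% of all genes), with medians of 0.76 for the members and -0.77 for all genes. These comparisons share tables, since adult liver enters 2 of them and P7 enters 2. When clusters in 3′UTRs, coding sequences and 5′UTRs alone were used and scaled to the reads of such clusters, the median of all genes moved to -0.07 for adult over e12.5, 0.10 for P7 over e18.5 and -0.14 for adult over P7, and the members' medians were 2.93, -0.74 and 1.44. On that scale 7 members were at least 4-fold higher in adult liver than at e12.5, with Acaca, Srebf1 and Dgat2 beside the 4 named. Elovl6 was no longer 4-fold lower. The share of all genes past 4-fold was not counted on that scale, so the 10.8% above cannot be set against these 7.

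**Figure D2:**
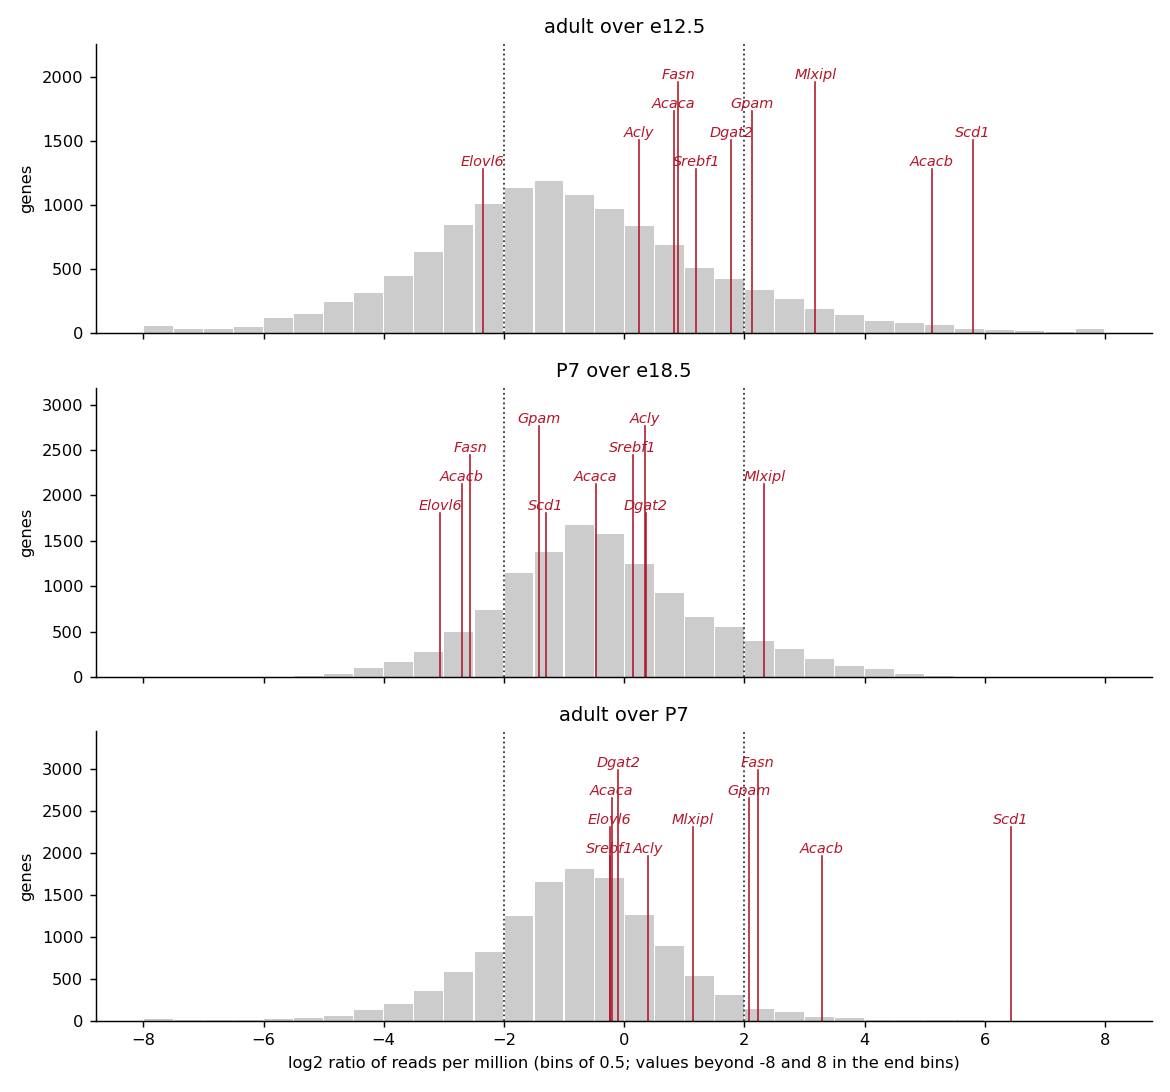
Number of genes (grey bars) by log2 ratio of RPM in the 3 comparisons, with each lipogenesis gene drawn as a red line at its own ratio. Dotted lines mark 4-fold. In adult over P7, Scd1, Acacb, Fasn and Gpam lie beyond the right line and no member lies beyond the left one.

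The steps that supply building blocks differed least in RPM for Acly and most for Acacb. Acly, ATP citrate lyase, had 61.94 RPM in the e12.5 table, 73 in that of e15.5, 44.43 in that of e18.5, 56.06 in that of P7 and 73.58 in adult liver. Among these, the highest and the lowest table lay less than 4-fold apart, and the lists of e12.5 differed more, at 119.5 and 33.57 RPM. With mRNA clusters on their own scale the lowest table was e18.5 with 128.3 and the highest adult liver with 507.2. The log2 ratio of P7 over e18.5 was 0.34 in RPM and 3.20 with the totals of both e18.5 libraries. Per kilobase of mRNA, a level that can be set against other genes, Acly was the highest member at e12.5 with 13 and at e15.5 with 15.7 mRNA RPM per kb, against medians of 2.94 and 4.9 over the members listed.

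For each gene the cluster with the most RPM in any table, called its top cluster, is described. That of Acly lay in coding exon 19 of 29, and every table listed it. It had 435 reads at e12.5, 151 for e15.5 and 113 for e18.5, followed by 86 at P7 and 469 in the adult, or 9.695, 9.141, 8.686, 5.212 and 18.85 RPM. Adult liver was the highest table and P7 the lowest. It holds an 8mer of miR-122-5p, the main miRNA of hepatocytes, at chr11:100493568-100493574 (mm10, minus strand), with a conservation score of 0.997 on a scale from 0 to 1. miR-122-5p made up 1.44% of the miRNA reads in the e12.5 table, 4.33% in that of e15.5, 9.2% in that of e18.5, 12.3% in that of P7 and 11.2% in adult liver. The reads of the Acly cluster did not follow that order, since P7 had the highest miR-122-5p share and the fewest cluster RPM. Sites of miR-103-3p and miR-3068-5p lie in the same cluster, and the tables do not say which miRNA the reads came with.

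A 3′UTR site of miR-194-5p in Acly, at chr11:100476485-100476491 (minus strand), was listed with 202 reads at e12.5, 35 for e15.5, 15 at P7 and 70 in adult liver, and was not listed at e18.5. It had 4.502 RPM at e12.5 and 0.9091 at P7, while miR-194-5p ranked 16 among miRNAs at e12.5 and 3 at P7. Its conservation score was 0.01, unlike that of the coding site.

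Acaca, the cytosolic acetyl-CoA carboxylase, had 9.294 RPM at e12.5, 13.01 for e15.5 and 26.52 for e18.5, followed by 19.09 at P7 and 16.56 in the adult. Its log2 ratio of P7 over e18.5 was -0.47, and it was 1.11 with mRNA clusters on their own scale, where 56.2% of its e18.5 reads, outside the exons, are left out. Adult over e12.5 was 1.78-fold, 4.84-fold on the mRNA scale, and -0.14 in log2 against the first list of e12.5. The top cluster of Acaca lay outside the exons, with 111 reads at chr11:84357449-84357462 (plus strand) in an intron at e18.5, and no other table listed it. The coding site of miR-30a-5p and miR-30e-5p in exon 52, at chr11:84382516-84382522, had 12 reads for e15.5, 9 at P7 and 36 in adult liver and was not listed in the other tables. A site of miR-16-5p in exon 14, at chr11:84245774-84245780, had 12 reads at e12.5 and 23 at P7. Only 2 clusters of Acaca lay in its 3′UTR of 1971 nt over all tables, against 67 in the coding sequence.

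Acacb, the carboxylase of the mitochondrial outer membrane that controls fatty acid oxidation, had 1.137 RPM at e12.5, 26.44 for e18.5, 4.061 for P7 and 39.66 for adult liver, and was not listed at e15.5. The adult value was 34.9-fold that of e12.5 (log2 5.12, 95% interval 4.72 to 5.53, counting error) and 9.77-fold that of P7. With mRNA clusters on their own scale these were 104-fold and 23.7-fold, and P7 was 2.68-fold below e18.5 in place of 6.51-fold. With the totals of both e18.5 libraries the log2 ratio of P7 over e18.5 turned to 0.16. At e18.5, 217 of its 344 reads lay in 1 intronic cluster at chr5:114217756-114217765 with a 7mer-m8 site of miR-122-5p, and the second list of that table did not list the gene. In adult liver 30 clusters were listed, 27 of them in the coding sequence, and the largest held 17.3% of the reads.

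Fasn, fatty acid synthase, had 109.6 RPM in the e12.5 table, 61.99 in that of e15.5, 258.1 in that of e18.5, 43.76 in that of P7 and 204.3 in adult liver. In RPM, high tables at e18.5 and in the adult thus stood on either side of a low one at P7, 5.9-fold below e18.5 and 4.67-fold below adult, or 4.15-fold and 7.28-fold with mRNA clusters on their own scale. The first list of e18.5 gave 292.1 and the second 128.1 RPM, and against the second list the log2 ratio of P7 was -1.55, less than 4-fold. With the totals of both e18.5 libraries as the divisor it turned to 0.30. Fasn had the most clusters of all members at every stage, between 23 and 90, of which 21 to 79 lay in the coding sequence of 7512 nt. The tables put at most 17.5% of the Fasn reads in the 3′UTR.

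The top cluster of Fasn, at chr11:120818925-120818976 (minus strand) in coding exon 9, had 1332 reads at e12.5, 96 for e15.5, 364 for e18.5 and 138 in adult liver and was not listed at P7. It was 29.69 RPM at e12.5, 5.811 for e15.5, 27.98 for e18.5 and 5.545 in adult liver. Among the 15 miRNAs with a site there the most abundant was miR-18a-5p, at rank 37 at e12.5, with an 8mer at chr11:120818938-120818944. A 3′UTR site of miR-136-5p at chr11:120807358-120807364 had 116 reads at e12.5 and 7 at e18.5 and was not listed at the other stages, while miR-136-5p ranked 5 at both of these stages, 3 for e15.5, 7 for P7 and 85 for adult liver. The site of miR-126a-3p in exon 13, at chr11:120817198-120817204 with a conservation score of 1, was listed with 21 reads at P7 and 122 in adult liver. miR-126a-3p, a miRNA known from endothelial cells, had rank 18 at P7 and rank 5 in adult liver. The miR-378a-3p site in exon 39, at chr11:120809231-120809237, was listed with 15 reads at e12.5, with 9 at e15.5 and with 79 in adult liver. A 3′UTR site of miR-27a-3p and miR-27b-3p at chr11:120807620-120807626 was listed in every table, with 306 reads at e12.5, 23 for e15.5 and 286 for e18.5, followed by 13 at P7 and 17 in the adult.

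The desaturase and the elongase went opposite ways from e12.5 to adult liver. Scd1 had 13.62 RPM in the e12.5 table, 29.48 in that of e15.5, 21.75 in that of e18.5, 8.849 in that of P7 and 761.3 in adult liver. The 4 earlier tables lay within 4-fold of each other, and the adult table was 55.9-fold above e12.5 (log2 5.80, 95% interval 5.69 to 5.92, counting error) and 86-fold above P7. On the scale of mRNA clusters alone these were 96.7-fold and 131-fold. The first list of e15.5 did not list Scd1. Per kilobase of mRNA Scd1 had 158 RPM in adult liver, and the next member, Dgat2, had 36.8.

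Few clusters held most of the adult reads of Scd1. The top cluster, at chr19:44406624-44406759 (minus strand) in coding exon 2, had 11 reads at e12.5, 32 for e15.5 and 10 for e18.5, followed by 96 at P7 and 8566 in the adult, or 45.2% of the gene's adult reads. The next, in coding exon 5, had 3572 reads, and the next after it, across the start of the coding sequence in exon 1, had 2138. Without the cluster of most reads in each table, adult liver had 417.1 RPM and e12.5 11.01. Of the 23 miRNAs with a site in the top cluster the most abundant was miR-30a-3p, at rank 50 in adult liver, so none of the 20 most abundant miRNAs had a match there. The longer matches of that cluster included a 7mer-m8 of miR-143-5p at chr19:44406721-44406727.

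Scd1 belongs to a family with near-identical stretches. Of its 318 site fragments of at least 20 nt, 70 also occur in transcripts of Scd2, Scd3 or Scd4, and no such fragment of another member occurs in a second protein-coding gene. Clusters with a shared fragment held 28.3% of the Scd1 reads at e12.5, 5.48% at P7 and 76.8% in adult liver. When the places of these clusters were left out of every table alike, 8.581 RPM were left at e12.5, 2.546 at P7 and 176.9 in adult liver, which was 20.6-fold and 69.5-fold higher in the adult. The P7 value then rested on 42 reads. Scd2 itself had 145.7 RPM in the e12.5 table, 400.9 in that of e15.5, 304.5 in that of e18.5, 36.43 in that of P7 and 12.42 in adult liver, and was thus lowest where Scd1 was highest. How the authors treated reads that fit several genes is not given in the sources used here.

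In its 3′UTR of 3467 nt Scd1 had 385 reads at e12.5, 411 for e15.5, 66 for e18.5, none listed at P7 and 2116 in adult liver. In this stretch lie 3 sites of miR-16-5p, at rank 2 in adult liver. Site 1, at chr19:44396756-44396762, had 52 reads at e15.5 and 76 in adult liver, and site 2, at chr19:44396086-44396092, had 51 and 58. Site 3, at chr19:44396464-44396470, was listed in adult liver only, with 244 reads. Their scaled levels at e15.5 and in adult liver were close, with 3.148 and 3.054 RPM for site 1 and 3.087 and 2.331 for site 2, unlike the gene as a whole. The conservation scores of the 3 sites were between 0.001 and 0.032. Adult liver also had a let-7 site at chr19:44396356-44396362 with 54 reads and a miR-378a-3p site at chr19:44395912-44395918 with 143 reads.

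**Figure D3:**
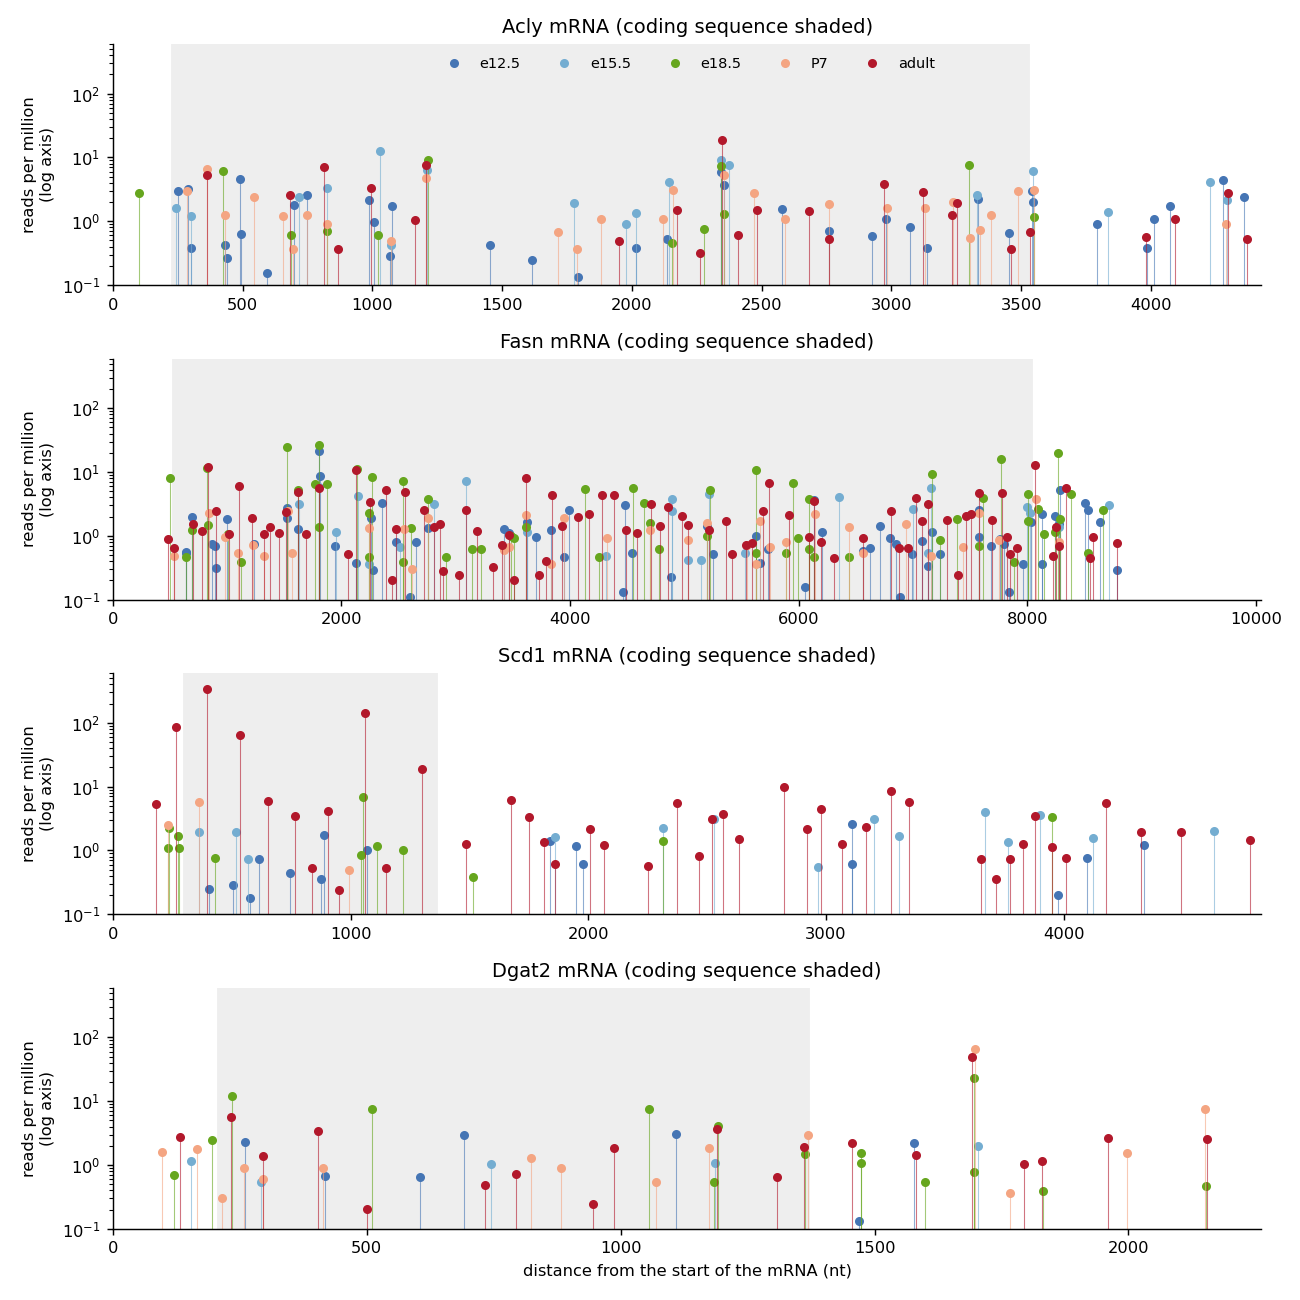
Clusters on the mRNAs of Acly, Fasn, Scd1 and Dgat2 by distance from the start of the mRNA (nt) and RPM (log axis), coloured by stage, with the coding sequence shaded. Clusters of the 2 lists of an embryonic table are drawn separately. Adult clusters of Scd1 reach 344.2 in the coding sequence, and the tallest clusters of Dgat2 lie at 1 place in the 3′UTR.

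Elovl6, which elongates palmitate to stearate, had 39.25 RPM at e12.5, 30.81 for e15.5 and 75.95 for e18.5, followed by 9.091 at P7 and 7.715 in the adult. All embryonic tables lay above both later ones. The P7 value was 8.35-fold below e18.5. The lists of e18.5 gave 84.1 and 44.81 RPM, and the log2 ratio of P7 was -3.21 against the first and -2.30 against the second, both past 4-fold, but -0.20 with the totals of both e18.5 libraries. The adult value was 5.09-fold below e12.5 (log2 -2.35), but 53.7% of the e12.5 reads lay outside the exons, and with mRNA clusters on their own scale the log2 ratio was -0.45. On that scale adult over P7 turned from -0.24 to 1.17.

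The top cluster of Elovl6 had 249 reads at chr3:129635410-129635415 (plus strand) in the 3′UTR at e15.5 and was not listed at any other stage. Its single site is a 6mer of miR-425-5p. Close by, at chr3:129635340-129635346, lies the site of miR-26a-5p and miR-26b-5p with a conservation score of 1, listed with 9 reads at e15.5 and 6 at e18.5. miR-26a-5p ranked 10 at all embryonic stages and 7 in adult liver, where the site was not listed.

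Both glycerolipid enzymes had more RPM in adult liver than at e12.5. Gpam, the mitochondrial glycerol-3-phosphate acyltransferase, had 10.59 RPM in the e12.5 table, 63.62 in that of e15.5, 29.13 in that of e18.5, 10.97 in that of P7 and 46.45 in adult liver. The e15.5 table was the highest in RPM, and P7 and e12.5 were alike. The adult value was 4.39-fold that of e12.5 and 4.23-fold that of P7, just past 4-fold. With mRNA clusters on their own scale these were 9.69-fold and 6.89-fold, and adult liver was the highest table, at 344.9 against 214.4 for e15.5. The ratio of adult liver to P7 was under 4-fold with clusters of longer seed matches only (log2 1.79). Per hepatocyte marker read the ratio of adult over e12.5 turned to -1.34 on the log2 scale.

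The top cluster of Gpam, at chr19:55070771-55070807 (minus strand) in the 3′UTR, had 234 reads at e15.5 and 35 in adult liver and was not listed elsewhere.

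A conserved let-7 8mer lies near the end of the Gpam coding sequence, in exon 22 at chr19:55070983-55070989 (minus strand), with a conservation score of 1. It had 27 reads at e15.5 and 126 in adult liver, or 1.634 and 5.063 RPM, and was not listed in the other tables. let-7c-5p made up 0.464% of the miRNA reads at e12.5, 0.999% for e15.5 and 2.49% for e18.5, then 10.9% at P7 and 15.6% in the adult. At P7 let-7c-5p had rank 2 and the site was not listed. Another coding cluster of Gpam, with an 8mer of miR-30f and a 7mer-A1 of miR-27a-3p and miR-27b-3p, was listed at all stages, with 6 reads in the e12.5 table, 169 in that of e15.5, 33 in that of e18.5, 19 in that of P7 and 160 in adult liver.

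Dgat2, which makes triglyceride from diacylglycerol, had 25.34 RPM at e12.5, 5.811 for e15.5 and 72.57 for e18.5, followed by 92.85 at P7 and 86.92 in the adult. The last 3 tables were alike in RPM and above the first 2, though the second list of e18.5 gave 28.52. With mRNA clusters on their own scale they were apart, at 213.8 for e18.5, 435.3 for P7 and 617.9 for adult liver, and the log2 ratio of P7 over e18.5 was 1.03 there and 3.22 with the totals of both e18.5 libraries. The lists of e12.5 gave 64.42 and 6.088 RPM, and 52.7% of the reads at e12.5 lay outside the exons. Adult liver was 3.43-fold above e12.5, 12-fold with mRNA clusters on their own scale, with log2 ratios of 0.43 against the first list of e12.5 and 3.84 against the second.

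Unlike the other members, Dgat2 had most of its late reads at 1 place in the 3′UTR. The cluster at chr7:99154209-99154237 (minus strand) in exon 8 was not listed at e12.5 and had 33 reads for e15.5, 309 for e18.5, 1090 for P7 and 1224 for adult liver. This was 1.998, 23.75, 66.06 and 49.19 RPM, and 71.2% of the Dgat2 reads at P7. None of its 7 miRNAs was abundant: the highest was miR-188-5p at rank 155 at P7, and the 7mer-m8 of miR-18a-3p at chr7:99154231-99154237 belonged to a miRNA of rank 297. The conservation score of that site was 0.001.

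Of the regulators, Srebf1 was highest from e18.5 on, and Mlxipl after birth. Srebf1 had 28.73 RPM in the e12.5 table, 12.53 in that of e15.5, 70.88 in that of e18.5, 78 in that of P7 and 65.98 in adult liver. The tables from e18.5 on were alike in RPM, and the lists of e18.5 differed more than these tables did, at 80.61 and 33.7. With mRNA clusters on their own scale they were 216.3, 372.9 and 475. Adult over P7 was -0.24 in log2 and 0.35 on that scale, and P7 over e18.5 was 0.14 and 0.79, or 3.00 with the totals of both e18.5 libraries. Its top cluster, at chr11:60203833-60203879 (minus strand) in coding exon 9, had 105 reads at e18.5 and 242 at P7 and was not listed elsewhere. The most abundant of its 7 miRNAs was miR-27b-3p, at rank 27 at P7.

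Mlxipl had 2.251 RPM at e12.5, 2.966 for e15.5 and 1.845 for e18.5, followed by 9.273 at P7 and 20.37 in the adult. Both later tables lay above the embryonic ones. Embryonic tables held 1 to 4 clusters and between 24 and 101 reads, P7 held 12 clusters and adult liver 20. The ratio of adult over e12.5 was 9.05-fold (log2 3.18, 95% interval 2.87 to 3.49, counting error), 14.1-fold with mRNA clusters on their own scale, and -0.30 in log2 per hepatocyte marker read. That of P7 over e18.5 was 5.03-fold and rested on 24 reads of 1 intronic cluster at e18.5, with a log2 ratio of 1.99 against the first list and none against the second, which did not list the gene. The top cluster of Mlxipl, at chr5:135133301-135133323 (plus strand) in coding exon 11, had 49 reads at e15.5 and was not listed elsewhere.

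Clusters of the lipogenesis genes lay in coding sequences more than those of all genes. The members had 170 mRNA clusters at e12.5, 100 for e15.5, 134 for e18.5, 169 for P7 and 300 for adult liver. Of these, 25.88% lay in a 3′UTR at e12.5, 32% for e15.5, 22.39% for e18.5, 15.98% for P7 and 24% for adult liver. All genes had 41.48%, 40.41%, 38.03%, 36.94% and 29.73% in the same order. The 95% Wilson intervals of the members lay below the value of all genes at e12.5 (19.88% to 32.95%), e18.5 (16.16% to 30.16%), P7 (11.22% to 22.25%) and adult (19.52% to 29.14%), and held it at e15.5 (23.67% to 41.66%). Clusters of 1 gene are not independent, so these intervals cover counting error only. In the first list of e12.5 the members' share was 43.14%, of 51 clusters, and in the second 19.57%. The share of all genes was not taken for each list, so these values cannot be set against it.

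The lengths of the parts differed too. The members' coding sequences added up to 36699 nt, and over all tables and lists they held 18.47 clusters per kb, against 10.17 in their 3′UTRs and 7.485 in their 5′UTRs. Fasn had 32.75 clusters per kb in its coding sequence and 14.42 in its 3′UTR. Acaca and Acacb, with the longest coding sequences beside Fasn, had 9.524 and 4.63 per kb there. Elovl6, with 5008 nt the longest 3′UTR, had 7.388 per kb in it, and Dgat2 had 23.57.

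**Figure D4:**
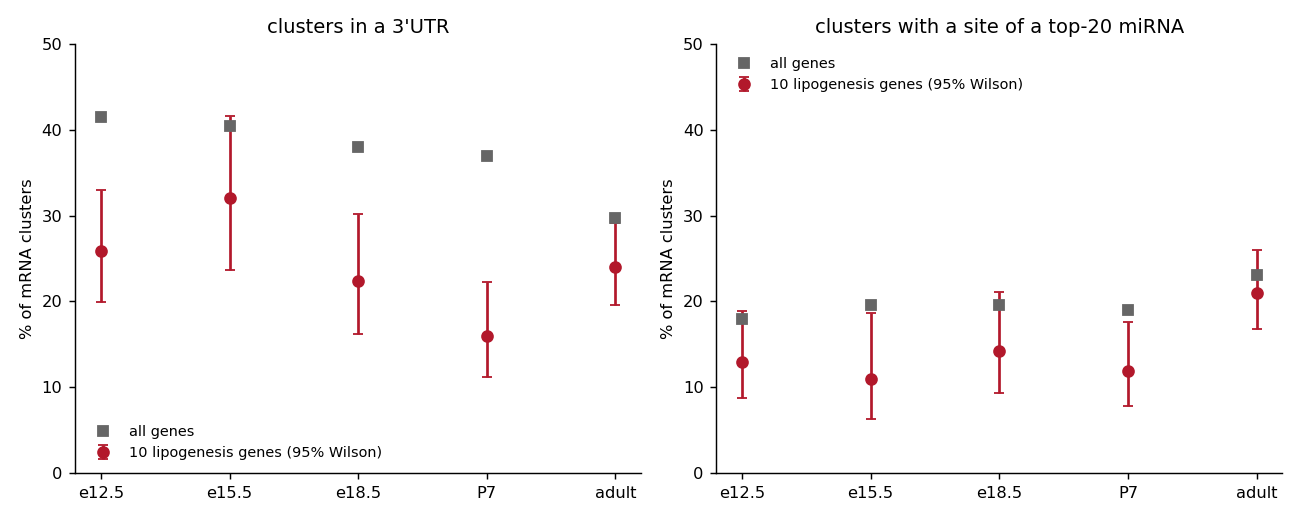
Share of the mRNA clusters that lay in a 3′UTR (left) and share that held a site of 1 of the 20 most abundant miRNAs of the table (right), in percent, for the 10 lipogenesis genes with 95% Wilson intervals and for all genes as squares. The members lie below all genes in every panel and stage, with intervals that hold the value of all genes at e15.5 on the left and at e12.5, e18.5 and in adult liver on the right.

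Sites of the most abundant miRNAs were no more common on these genes than elsewhere. A site of any of the 20 most abundant miRNAs was present in 12.94% of the members' mRNA clusters at e12.5, 11% for e15.5, 14.18% for e18.5, 11.83% for P7 and 21% for adult liver. For all genes the shares were 17.93%, 19.53%, 19.54%, 18.98% and 23.1%. In all, 478 miRNAs had a site in a member at e12.5, 295 for e15.5, 358 for e18.5, and 492 in each of the later tables, and between 49.09% and 56.76% of the sites were 6mers.

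Among the miRNAs counted singly, miR-16-5p had sites in the most member clusters of adult liver. It had a site in 14 of 300 adult clusters, in Acacb, Acly, Dgat2, Fasn, Gpam and Scd1, or 4.67%, and all genes had 4.67% too. miR-122-5p had sites in 2, 1, 4, 3 and 8 member clusters in the order of the stages. In adult liver these 8 lay in Acacb, Acly, Fasn and Srebf1 and made up 2.67%, against 3.32% for all genes. miR-27b-3p had sites in 7 of 100 member clusters at e15.5, in Acly, Elovl6, Fasn, Gpam, Scd1 and Srebf1, or 7% against 3.19% for all genes, and in 9 adult clusters, or 3% against 2.97%. miR-194-5p had 1 member cluster at e12.5, or 0.588% against 0.599% for all genes, and 5 in the adult table, or 1.67% against 1%. let-7c-5p had 2 in adult liver, in Gpam and Scd1, or 0.667% against 2.14% for all genes.

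Of 517 places on their mRNAs, joined by overlap, 328 or 63.4% were listed in 1 table and 13 in all 5. Fasn held 6 of these 13 places, Acly 4, Gpam 2 and Scd1 1. Acacb had 94.1% of its places in 1 table and Acly 47.2%. At the level of single sites 25.7% of the members' 2793 site positions were listed in at least 2 tables, against 23% of the 991594 positions of all genes, and 0.537% in all 5 tables, against 0.76%. The recurring places included an 8mer of miR-103-3p and miR-107-3p in the Fasn coding sequence at chr11:120815411-120815417, with 73 reads in the e12.5 table, 19 in that of e15.5, 18 in that of e18.5, 35 in that of P7 and 203 in adult liver, and an 8mer of miR-19a-3p and miR-19b-3p in Gpam at chr19:55081619-55081625, with 14, 90, 5, 22 and 155 reads. miR-103-3p and miR-107-3p are known for their role in hepatic insulin sensitivity.

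Other genes of the pathway lay on both sides of the 4-fold mark. Of a list of 48 (among them Slc25a1, Me1, Fads1, Acsl1, Dgat1 and Scap) 41 were listed at both e12.5 and adult, of which 14 were at least 4-fold higher, beside 10.8% of all genes, and 10 at least 4-fold lower, beside 32.6%, with a median log2 ratio of 0.46 against -1.09 for all genes. From e18.5 to P7, of 41 listed in both tables, 0 were at least 4-fold higher (9.57% of all genes) and 6 lower (15.1%). From P7 to adult liver, of 41 again, 2 were higher (3.03%) and 3 lower (18.8%). The highest of adult over e12.5 were Fabp1, the liver fatty acid binding protein, from 11.41 to 280.3 RPM, Insig2, which holds the SREBP complex in the endoplasmic reticulum, from 1.649 to 23.79, and Elovl5, an elongase of polyunsaturated fatty acids, from 7.466 to 89.65. The lowest were Scd2, with the values given above, and the proteases that release SREBP from its membrane, Mbtps1, from 17.3 to 1.728, and Mbtps2, from 3.9 to 0.4822 RPM.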

How the data were processed

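Ago HITS-CLIP tables of mouse liver at 5 stages were analysed, with 1 table per stage and groups taken from the sample labels. Per the paper's methods the authors preprocessed reads with the FASTX-Toolkit, mapped them with Bowtie (version not given in the sources used here) to mm10 and miRBase precursors, grouped overlapping reads into clusters, annotated them with refGene and Ensembl and searched them for miRNA seeds. The submitters' processing notes name mm9 beside mm10, and the deposited positions that were looked up matched GRCm38. The deposited read column is a signal, the highest read number of a cluster, as whole numbers from 5 upward and not scaled by the authors. The deposited conservation score runs from 0 to 1 by a method that was not given. Each interaction name also holds a number per miRNA, which the tables do not explain and which was taken as its read count, deposited by the authors.

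Rows whose gene column held a member's symbol were used. Reads of distinct clusters were added per gene and divided by the table's summed cluster reads. Lists of a table were added for reads (of a cluster or site, the highest value in each list) and joined by overlap for cluster counts. A cluster listed under several regions counted in each. Exons, lengths and parts came from GENCODE vM21, with the transcript of the longest coding sequence. Genes were compared where both tables listed them, with a fold of 4 as the mark, and intervals are 95% Wilson or Poisson limits for counting error. A barcode in the linker is named in the study's supplement, but its use is not explained there, so reads were not taken as independent molecules. The depth was 13008703 to 44867326 summed cluster reads, which sets the counting error only.

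Named sites had at least 7 matched bases and a miRNA among the 20 with the highest number in that table, ranked by tables and then reads. The rule held for 16 sites in 3′UTRs and 34 in coding sequences, of which at most 12 and 6 were kept, and the first 6 of each are printed. The members, gene lists and rules were chosen with earlier results of these data known. Of the 48 pathway symbols, 42 were listed as such, 3 under an older RefSeq symbol and 3 not at all. The functions behind the values were tested on simulated data. Python 3.11.15, pandas 2.3.3, numpy 2.4.6, scipy 1.17.1, pysam 0.24.0 and matplotlib 3.10.9 were used. Each gene's top cluster had its most scaled reads in any table. Alternatives were a minimum of 10 reads, longer seed matches, other regions, scalings and lists, and a fold of 2. Scaling to mRNA cluster reads was planned for the summed reads, and added after seeing the data for single members and counts and in combination with mRNA clusters, as were scalings to hepatocyte marker reads and to the study's totals with both e18.5 libraries.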

Additional observations from a re-analysis of the deposited data

How the results depend on the processing

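No paired analysis was possible because each stage has 1 table and no labelled replicate numbers. The log2 ratio of the members' summed reads turned under 2 of the alternatives, both chosen after seeing the data, and the cause of the differences was not tested. Scaling to hepatocyte marker reads, which moves the ratio of every gene by -3.48 for adult over e12.5, gave -1.35 there, with Mlxipl at -0.30, Gpam at -1.34, 1 member at least 4-fold higher and 5 lower, and gave -0.86 for P7 over e18.5 and 1.80 for adult over P7. Shares of all genes past 4-fold were counted in RPM of the whole tables only, so none stands beside the counts in this section. Scaling to the study's library totals with both e18.5 libraries added, which moves every gene by 2.86 for P7 over e18.5, gave 1.95, with Fasn at 0.30 and Acacb at 0.16, and then 5 members were at least 4-fold higher and 0 lower. For adult over e12.5 (2.13) it was 2.26 with sites of at least 7 matched bases, 2.44 scaled to the study's library totals (for e18.5, below, those of 1 library), 2.92 scaled to mRNA cluster reads, 2.41 with mRNA clusters, 3.20 with both, 1.35 with the first and 2.77 with the second embryonic list, 3.15 with the highest cluster of each gene and 0.96 without Scd1. For P7 over e18.5 (-0.92) the values in that order were -0.82, -0.45, -0.37, -0.79, -0.24, -1.09, -0.01, -0.14 and -0.91, so that the second list showed close to no difference. For adult over P7 (1.99) it was 2.09 with at least 10 reads, 2.06 with at least 7 matched bases, 2.60 scaled to mRNA cluster reads, 2.05 with mRNA clusters, 2.66 with both, 2.10 with the highest clusters and 0.80 without Scd1. The 4 members past 4-fold in P7 over e18.5 became 2 with mRNA clusters, 2 with both and 1 with the second list. The combination of both, and the mRNA read scaling of single members and of these counts, were chosen after seeing the data. Of 113 alternatives of the member ratios past 4-fold, 92 stayed past it, 17 did not, and in 4 the member was not listed in both tables (Acacb with the second list, and Mlxipl with the second list, with mRNA clusters and with both, in P7 over e18.5). Clusters under 5 reads are not listed, so a gene or site that is not listed may have had fewer reads.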

Other observations

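In RPM, the reads of a gene's clusters scaled to the summed cluster reads of the table, 3 other pathway genes stood out after their values had been seen. Thrsp, a nuclear protein that responds to lipogenic stimuli, was listed in adult liver only, with 747 reads or 30.02 RPM. Pnpla3, a lipid droplet protein under SREBP-1 control, had 6.15 RPM at e18.5 and between 0.3637 and 0.908 at e12.5, e15.5 and P7, and was not listed in adult liver. Lpin1, a phosphatidate phosphatase, had 8.358 RPM at e12.5, 5.085 for e15.5 and 131.3 for e18.5, followed by 34.85 at P7 and 85.43 in the adult, so that, like Fasn, it had a low P7 table between higher ones at e18.5 and in the adult. The log2 ratio of P7 over e18.5 was -1.91 for Lpin1 and -4.08 for Pnpla3. It depends on the divisor, since the totals of both e18.5 libraries move every gene by 2.86.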
